A study of Mus musculus with 8 samples.

Results

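The genes of the nuclear-encoded respiratory chain subunits were described in hind limb undifferentiated pleomorphic sarcomas (UPS) of KP and KPH2 mice. Members were the rows of the raw count table whose symbols match Nduf (a, b, c, s or v and a number), Sdha to Sdhd, Uqcr, Cox4 to Cox8 or Atp5 (a to l). This took 82 of 26667 rows, of which 37 fell to complex I, 4 to complex II, 8 to complex III, 19 to complex IV and 14 to complex V. KP mice carried Trp53 fl/fl among their conditional alleles, and KPH2 mice carried the same alleles and Epas1 fl/fl, so that HIF-2α is lost with p53 where Cre acts. The labels call the KP tumours wild type, all animals were on a mixed 129/C57BL/6 background, and the methods give adult mice of both sexes. In both groups tumours were started by adenovirus expressing Cre in the muscle of the right hind limb, so host cells in the section that were not infected keep Epas1. RNA came from fixed, paraffin-embedded sections, was depleted of ribosomal RNA and was sequenced as 1 stranded library per tumour from 4 KP tumours (KP 5 to KP 8) and 4 KPH2 tumours (KPH2 1 to KPH2 4). The study's methods exclude 1 HIF-2α knockout library as a technical outlier. KPH2 1 was taken as that library because it is missing from the deposited table of 7 tumours, which holds KP 5 to KP 8 and KPH2 2 to KPH2 4. The study's Results section instead gives the smaller group as KP. Its methods and its legend for Ano1 in the sequenced tumours give the smaller group as KPH2, as in the deposited table. Values over 7 tumours compare KP 5 to KP 8 with KPH2 2 to KPH2 4, and KPH2 1 is given apart.

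The respiratory chain of the inner mitochondrial membrane passes electrons from NADH (complex I) and succinate (complex II) through ubiquinone to complex III, and by cytochrome c to complex IV, which reduces oxygen to water. Complexes I, III and IV pump protons, and complex V, the ATP synthase, uses their return to make ATP. Most subunits are encoded in the nucleus. A few subunits of complex IV have isoforms for heart and skeletal muscle, among them Cox6a2, Cox7a1 and Cox8b, beside forms that most tissues use.

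The name rule and the biology differed at a few rows. Cox4nb (now Emc8), a subunit of a membrane complex of the endoplasmic reticulum, matched the rule by its letters and stayed in the counts for complex IV, leaving 81 other rows. Ndufa4 was counted under complex I by its name, although its protein is now placed with complex IV, and Cox7a2l, an assembly factor of supercomplexes, was counted under complex IV. All 82 rows were found in the RefSeq annotation of GRCm38.p6. For 15 of them, more than 10% of the 100-base words of the transcript occurred in another annotated gene, so unique alignments could be lost or divided. The highest of these shares were 69.0% for Atp5l, 33.4% for Ndufb4 and 29.5% for Atp5h.

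Promoter sequences were printed for a pair of muscle isoforms, for Cox8a and Cox6a1, the forms that most tissues use of the subunits of Cox8b and Cox6a2, and for Sdhb, to set the isoforms beside a subunit without a muscle form. Each is the 250 bases before the annotated start on the gene's strand, from RefSeq (GRCm38.p6). They are chr7:30183921-30184170 on the plus strand for Cox7a1, chr7:140900447-140900696 on the minus strand for Cox8b, chr19:7217617-7217866 on the minus strand for Cox8a, chr5:115348959-115349208 on the minus strand for Cox6a1 and chr4:140961021-140961270 on the plus strand for Sdhb. Capitals mark GCATGCGC, the core of the site of NRF1, a factor of nuclear genes for mitochondria, and CANNTG, the E-box that myogenic and other helix-loop-helix factors bind, searched on both strands.
Cox7a1: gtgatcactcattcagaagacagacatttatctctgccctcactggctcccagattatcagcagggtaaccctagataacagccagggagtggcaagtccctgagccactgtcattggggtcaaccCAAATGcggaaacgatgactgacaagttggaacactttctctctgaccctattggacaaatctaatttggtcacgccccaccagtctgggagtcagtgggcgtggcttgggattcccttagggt
Cox8b: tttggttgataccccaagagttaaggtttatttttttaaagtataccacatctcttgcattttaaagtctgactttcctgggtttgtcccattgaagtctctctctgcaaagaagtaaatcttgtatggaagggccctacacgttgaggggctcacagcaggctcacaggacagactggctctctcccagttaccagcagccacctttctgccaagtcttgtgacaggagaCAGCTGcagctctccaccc
Cox8a: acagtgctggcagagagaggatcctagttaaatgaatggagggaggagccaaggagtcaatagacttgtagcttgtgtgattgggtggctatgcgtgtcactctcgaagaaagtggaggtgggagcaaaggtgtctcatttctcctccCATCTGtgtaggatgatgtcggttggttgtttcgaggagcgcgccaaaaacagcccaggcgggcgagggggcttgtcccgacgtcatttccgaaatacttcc
Cox6a1: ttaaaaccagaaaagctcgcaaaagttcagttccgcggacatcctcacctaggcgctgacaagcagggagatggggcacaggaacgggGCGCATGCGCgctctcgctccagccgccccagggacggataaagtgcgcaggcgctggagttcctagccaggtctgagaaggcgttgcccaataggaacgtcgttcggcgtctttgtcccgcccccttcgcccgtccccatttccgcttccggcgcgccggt
Sdhb: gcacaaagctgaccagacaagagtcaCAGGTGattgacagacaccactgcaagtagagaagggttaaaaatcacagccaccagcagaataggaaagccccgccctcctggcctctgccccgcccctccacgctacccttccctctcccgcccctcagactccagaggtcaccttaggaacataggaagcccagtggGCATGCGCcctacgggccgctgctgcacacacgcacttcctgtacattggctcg
A match is a description of the letters only. GCATGCGC reads as GCGCATGC on the other strand, so the capital run of Cox6a1 holds a match on each strand that overlap. Cox7a1, Cox8b and Cox8a had no such match in this window, and Cox6a1 had no E-box. Cox7a2, the partner form of Cox7a1, was not printed and had no NRF1 core in its window either. Over the 65 members with a promoter entry, 8 held the NRF1 core (12.3%), against 2.26% of all 32851 promoters and 4.25% of the 10181 promoters of genes tested for expression. The 8 members were Atp5g2, Atp5k, Atp5l, Cox6a1, Ndufa11, Ndufa6, Ndufa8 and Sdhb. The E-box was in 40 of 65 (61.5%), against 66.2% of all promoters and 57.3% of those of tested genes. ACGTG, the core of the element that hypoxia-inducible factors bind, which the E-box CACGTG contains, was in 13 of 65 (20%), against 16.6% of all promoters and 21.4% of those of tested genes.

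Epas1, the deleted gene, was at 59.2, 83.2, 86.9 and 84.1 CPM (counts scaled to one normalized library size) in KP 5 to KP 8 and at 53.4, 37.7 and 42.5 CPM in KPH2 2 to KPH2 4, with KPH2 1 at 32.6 CPM. Every KPH2 tumour was below every KP tumour, and the log2 fold change over 7 tumours was -0.81 (SE 0.19, adjusted p 0.0742, edgeR). Counts cover the whole gene, including exons that the deletion leaves. Total counts ran from 6463221 to 13155510, and members took 0.378% to 0.467% of the normalized library in KP and 0.476% to 0.630% in KPH2 2 to KPH2 4. Skeletal muscle markers differed between tumours of one group. Their score, the mean log2 CPM of 32 genes, was 3.0 to 4.15 in KP, 6.29, 6.88 and 4.58 in KPH2 2, 3 and 4, and 3.01 in KPH2 1. The summed level of the 32 genes was 1832 to 3354 CPM in KP, 4348 to 19670 CPM in KPH2 2 to KPH2 4 and 1512 CPM in KPH2 1, and no marker was at 0 in all tumours. Over 7 tumours all 32 had positive log2 fold changes (median 2.20), and 3 rose past the adjusted p of 0.05 by edgeR: Eno3, the muscle enolase (2.98), Neb, which encodes the thin filament protein nebulin (2.23), and Myoz2, of the sarcomeric Z-disc (3.32). The count of muscle markers past the adjusted p by edgeR was 0 over all 8 tumours, 1 without KP 5, KP 7, KP 8, KPH2 2 or KPH2 3 and 16 without KPH2 4, and DESeq2 gave 25. The shares of all genes called higher moved as well, from 1.24% over 7 tumours to 0.00675% over 8, 0.283% to 1.26% with a tumour left out and 4.02% with DESeq2.

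The first comparison asked whether respiratory chain genes differed with Epas1 genotype. Of the 82 members 74 passed the low-count filter, and 69 of these (93.2%) had a positive log2 fold change in KPH2 2 to KPH2 4 against KP, where 48.0% of all 14867 tested genes did. Their median was 0.29, against -0.02 over all genes, with a range from -0.73 for Cox6b2 to 1.92 for Cox6a2. By edgeR 1 member rose past the adjusted p of 0.05 (background 1.24% of all genes), and 0 members fell (background 0.720%). That call was lost with any 1 of the 7 tumours left out. At an unadjusted p under 0.05, edgeR gave 14 members higher (18.9%, background 8.50%) and 0 lower (background 9.26%), and DESeq2 gave 2 past its adjusted p, Ndufv1 among them (background 4.02%), and 0 lower (background 3.91%). In 15 members (20.3%) every one of KPH2 2 to KPH2 4 was above every KP tumour, where this held for 8.73% of all genes, and the reverse held for 0 (background 8.15%).

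**Figure D1:**
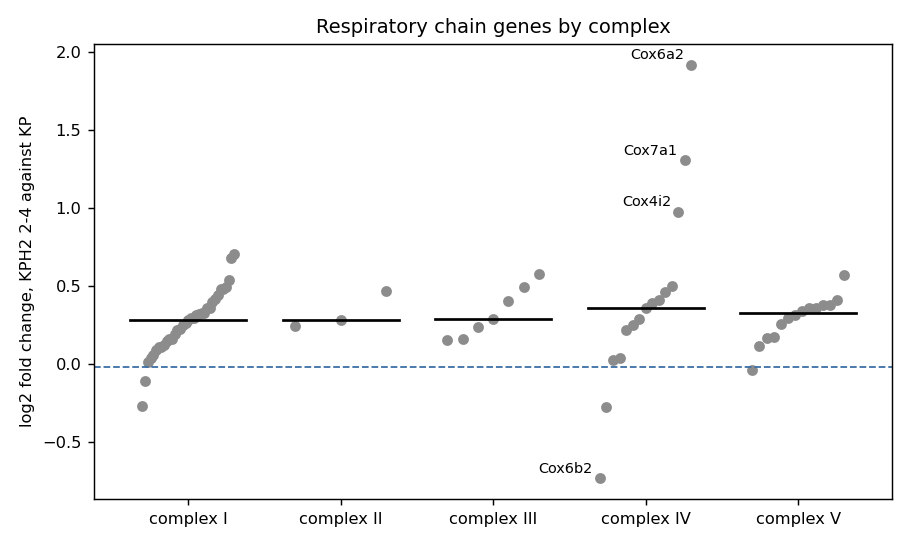
Log2 fold change of each of the 74 tested members in KPH2 2 to KPH2 4 against KP (vertical axis), by complex (horizontal axis); the black bar is the median of the complex, and the dashed line the median of all tested genes (-0.02). The medians of the 5 complexes lie between 0.28 and 0.36, and the widest spread is in complex IV, from Cox6b2 (-0.73) to Cox6a2 (1.92).

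Muscle markers moved with this comparison. With the muscle score as a covariate in the same fit, 39 of 74 members had a positive log2 fold change (background 48.0%), the median was 0.02 and edgeR called 0 members, with 3 genes called among all tested. In these 7 tumours every KPH2 score (4.58 to 6.88) was above every KP score (3.0 to 4.15). Genotype and muscle content therefore cannot be told apart by this fit. Without KPH2 2 and KPH2 3, the tumours with the highest scores, and with KPH2 1, 60 of 75 tested members were positive (background 50.1%), with a median of 0.20 and 0 members past the adjusted p, where 0 of all 15316 genes passed. Over all 8 tumours 67 of 74 were positive (background 50.9%), with a median of 0.28 and 0 members past the adjusted p, where 1 gene of 14805 passed (0.00675%). Leaving out KPH2 2 alone gave 53 of 74 positive (background 47.6%) and a median of 0.14. In KPH2 1, whose muscle score was within the KP range, 36 of 74 members (48.6%) were above every KP tumour, where 24.6% of all genes were. Every one of 4 KPH2 tumours was above every KP tumour for 10 members (13.5%, background 3.75%) and below for 0 (background 4.46%). The part of muscle RNA in the differences between genotypes was not tested beyond these values, and in bulk sections fewer cells of a type and less RNA per cell cannot be told apart.

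The summed level of all members was 4283, 4283, 3776 and 4670 CPM in KP 5 to KP 8, and 6298, 4763 and 4775 CPM in KPH2 2 to KPH2 4. KPH2 1 was at 5460 CPM. The 4 KPH2 tumours all lay above the 4 KP tumours, with a mean of 4253 ± 367 CPM for KP (SD, n = 4). For KPH2 2 to KPH2 4 the mean was 5278 ± 883 CPM (SD, n = 3), a ratio of 1.24. By complex the ratio was 1.24 for I, 1.24 for II, 1.23 for III, 1.21 for IV and 1.26 for V. The sums did not overlap between genotypes for complexes I and II and overlapped for III, IV and V. For complex I the gap was small, since KPH2 4 was at 1306 CPM and KP 8 at 1305 CPM, and KPH2 2 at 1678 CPM was apart from the other KPH2 tumours at 1306 to 1362 CPM.

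**Figure D2:**
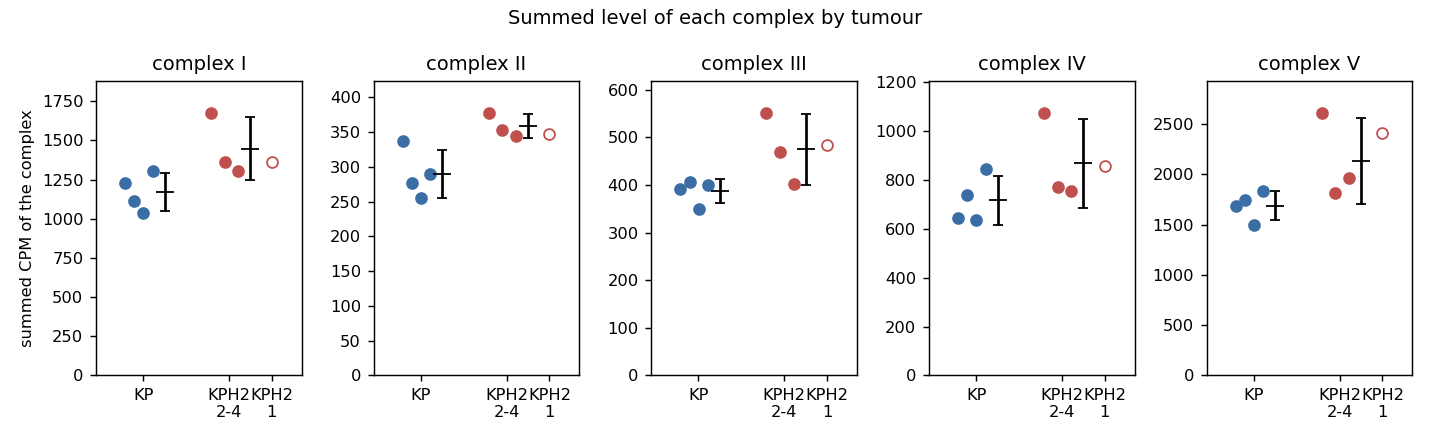
Summed CPM of the members of each complex (vertical axes, from 0) in KP 5 to KP 8 (blue, left to right), KPH2 2 to KPH2 4 (red, left to right) and KPH2 1 (open red); black marks are the mean and SD of the KP tumours and of KPH2 2 to KPH2 4. KPH2 2 is the highest tumour in each of the 5 panels, and KPH2 1 lies above every KP tumour in all 5.

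Complex I oxidizes NADH in a peripheral arm that holds flavin and iron-sulfur clusters. Of its 35 tested members 33 were positive (median 0.28), 8 (22.9%, background 8.73%) were above KP in every one of KPH2 2 to KPH2 4, and 6 (17.1%, background 3.75%) in all 4 KPH2 tumours.

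The core subunits Ndufv1 and Ndufs1 were chosen with their values in view, for groups that did not overlap. Of other core subunits, Ndufv2 (log2 fold change 0.32) did not overlap over 7 tumours and did over 8, and Ndufs3 (0.29), Ndufs8 (0.22) and Ndufs7 (0.11) overlapped in both; none of these 4 passed the adjusted p by edgeR. Ndufv1, which binds NADH and the flavin, was at 62.8, 51.2, 55.3 and 51.1 CPM in KP 5 to KP 8, at 77.5, 79.8 and 74.2 CPM in KPH2 2 to KPH2 4, and at 63.5 CPM in KPH2 1. KPH2 1 was above KP 5, the highest KP tumour, by under 1 CPM, and the log2 fold change was 0.48 (SE 0.14, adjusted p 0.117, edgeR). Ndufs1, which carries iron-sulfur clusters, was at 65.0, 51.5, 57.7 and 60.5 CPM in KP 5 to KP 8, at 81.8, 77.5 and 80.4 CPM in KPH2 2 to KPH2 4, and at 83.2 CPM in KPH2 1. Here KPH2 1 was the highest of the 8 tumours, and the log2 fold change was 0.44 (SE 0.13, adjusted p 0.136, edgeR). Of the accessory subunits, also singled out after their values were seen, Ndufa9, Ndufa10 and Ndufb3 were above KP in all 4 KPH2 tumours, and Ndufa13 in KPH2 2 to KPH2 4, while KPH2 1 (54.9 CPM) was below KP 8 (57.8 CPM).

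Ndufa9 was at 51.2, 46.4, 48.9 and 51.0 CPM in KP 5 to KP 8, at 72.9, 58.3 and 64.1 CPM in KPH2 2 to KPH2 4, and at 64.3 CPM in KPH2 1. The groups did not overlap, and the log2 fold change was 0.40 (SE 0.14, adjusted p 0.184, edgeR). The most negative log2 fold change in complex I was that of Ndufa4, which was at 82.1, 72.9, 73.2 and 65.7 CPM in KP 5 to KP 8 and 72.2, 50.1 and 61.2 CPM in KPH2 2 to KPH2 4, with KPH2 1 at 109 CPM. KPH2 1 stood above all other tumours, and the log2 fold change was -0.27 over 7 tumours and -0.01 over 8 (adjusted p 0.456 and 0.994, edgeR). Ndufa4l2, its paralogue and a known target of hypoxia signalling, was at 2.67, 9.76, 9.04 and 5.58 CPM in KP 5 to KP 8, 13.7, 2.10 and 4.73 CPM in KPH2 2 to KPH2 4, and 5.43 CPM in KPH2 1. Its values spread widely within both groups, and the log2 fold change of 0.04 (SE 0.65, adjusted p 0.984, edgeR) was negative over all 8 tumours (-0.04).

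**Figure D3:**
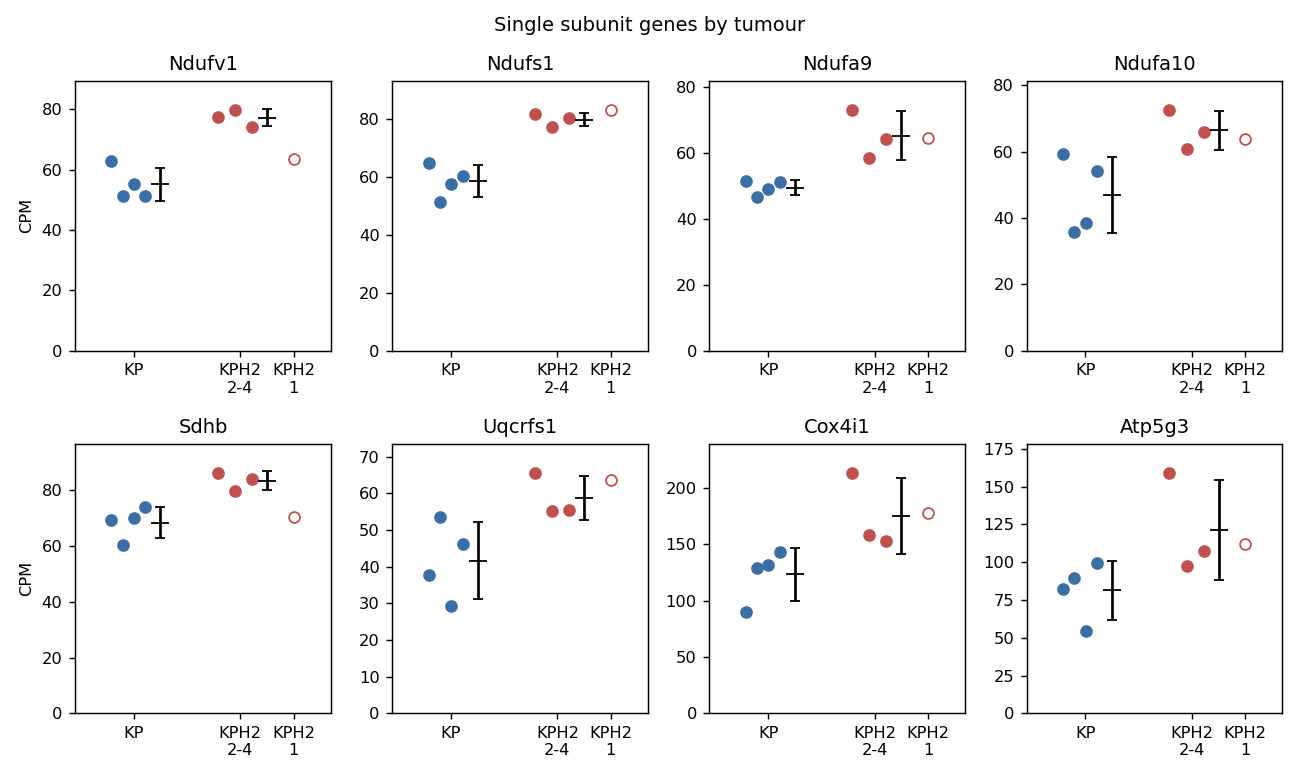
CPM of 8 members (vertical axes, from 0) in KP 5 to KP 8 (blue, left to right), KPH2 2 to KPH2 4 (red, left to right) and KPH2 1 (open red), with mean and SD in black. All KPH2 tumours lie above every KP tumour for Ndufs1, Ndufa9, Ndufa10, Uqcrfs1 and Cox4i1, narrowly for Ndufa10 and Uqcrfs1. KPH2 1 lies close to the top of KP for Ndufv1 and within KP for Sdhb. In all panels but Atp5g3, KPH2 2 to KPH2 4 lie above every KP tumour, which held for 15 of the 74 tested members.

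Complex II, succinate dehydrogenase, links the chain to the citrate cycle. Sdhb, its iron-sulfur subunit, was at 69.3, 60.4, 70.1 and 73.9 CPM in KP 5 to KP 8, at 86.3, 79.8 and 84.2 CPM in KPH2 2 to KPH2 4, and at 70.6 CPM in KPH2 1, which was inside the KP range. Its log2 fold change was 0.28 (SE 0.13, adjusted p 0.308, edgeR). Sdha, the flavoprotein, was at 128 to 189 CPM in KP and 183 to 194 CPM in KPH2 2 to KPH2 4 (log2 fold change 0.25, adjusted p 0.478, edgeR). Sdhc, a membrane anchor, was at 43.0 to 78.9 CPM in KP and 77.1 to 102 CPM in KPH2 2 to KPH2 4 (0.47, adjusted p 0.314, edgeR), and both overlapped between groups. Sdhd, the other anchor, had 4, 1, 0 and 3 counts in KP 5 to KP 8, 0 in KPH2 1 to KPH2 3 and 2 in KPH2 4, and was not tested. Beside the levels of the 3 partner subunits this count was low in all 8 tumours, and none of its 100-base words occurred in another gene. The cause was not tested.

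Complex III passes electrons from ubiquinol to cytochrome c. All 7 tested members were positive (median 0.29). Uqcrfs1, the Rieske iron-sulfur protein, had the smallest unadjusted p of the complex and was at 37.6, 53.5, 29.2 and 46.3 CPM in KP 5 to KP 8, 65.6, 55.1 and 55.6 CPM in KPH2 2 to KPH2 4, and 63.5 CPM in KPH2 1. All 4 KPH2 tumours were above KP, and the log2 fold change was 0.50 (SE 0.21, adjusted p 0.274, edgeR). Uqcrh, the hinge subunit next to cytochrome c1, had the highest level of the complex per transcript length, at 180 CPM per kb over 7 tumours, and was at 85.5 to 100 CPM in KP and 85.0 to 138 CPM in KPH2 2 to KPH2 4, so that the groups overlapped (log2 fold change 0.16, adjusted p 0.726, edgeR).

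Complex IV, cytochrome c oxidase, had 13 of 15 tested members positive (median 0.36). Cox4i1, the form of subunit 4 that most tissues use, was at 89.6, 128, 132 and 143 CPM in KP 5 to KP 8, at 213, 158 and 152 CPM in KPH2 2 to KPH2 4, and at 178 CPM in KPH2 1. The groups did not overlap, and the log2 fold change was 0.50 (SE 0.20, adjusted p 0.235, edgeR). Its paralogue Cox4i2, a form of lung and of low oxygen, was at 2.15, 3.68, 2.37 and 1.51 CPM in KP 5 to KP 8, at 7.11, 4.10 and 2.93 CPM in KPH2 2 to KPH2 4, and at 0.879 CPM in KPH2 1, the lowest of the 8 tumours. Its log2 fold change was 0.98 (SE 0.42, adjusted p 0.273, edgeR). The members with a negative log2 fold change were Cox7a2l (-0.27, adjusted p 0.471, edgeR) and Cox6b2, a form of testis (-0.73, adjusted p 0.537, edgeR).

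Complex V had 13 of 14 tested members positive (median 0.33). Atp5g3, a gene of the membrane ring subunit c, had the smallest unadjusted p and was at 82.3, 89.7, 54.4 and 99.8 CPM in KP 5 to KP 8, at 159, 97.8 and 108 CPM in KPH2 2 to KPH2 4, and at 112 CPM in KPH2 1. KPH2 3 was below KP 8, and the log2 fold change was 0.57 (SE 0.25, adjusted p 0.273, edgeR). Atp5b, the catalytic beta subunit, had the highest level per length of all members, at 332 CPM per kb over 7 tumours, and was at 573, 614, 480 and 562 CPM in KP 5 to KP 8, 1007, 487 and 728 CPM in KPH2 2 to KPH2 4, and 799 CPM in KPH2 1 (log2 fold change 0.41, SE 0.24, adjusted p 0.426, edgeR). The groups overlapped through KPH2 3. Atp5l, which shares most of its words with Gm10221, was at 1.24 to 2.80 CPM in all 8 tumours and had a log2 fold change of -0.03 (adjusted p 0.971, edgeR). Atp5f1, subunit b of the stalk, was singled out after its values were seen, being at 414 CPM (5186 counts) in KPH2 1 and at 105 to 168 CPM in the other 7 tumours. Over 7 tumours its log2 fold change was 0.12 and over 8 it was 0.63 (adjusted p 0.809 and 0.453, edgeR), and 16.8% of its words occurred in Wdr77.

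Cox6a2 and Cox7a1 had the largest log2 fold changes of the tested members over 7 tumours, and all 3 muscle isoforms were at low levels in all 8. Cox7a1 (chromosome 7, 30184171 to 30186030) was at 2.0, 0.990, 1.33 and 1.28 CPM in KP 5 to KP 8, at 4.95, 2.50 and 3.16 CPM in KPH2 2 to KPH2 4, and at 1.92 CPM in KPH2 1. KPH2 2 to KPH2 4 were above KP and KPH2 1 was inside the KP range. The log2 fold change was 1.31 (SE 0.38, adjusted p 0.126, edgeR), and the exact two-sided permutation test of mean log2 CPM gave p = 0.029 over 35 splits, the smallest it can give, and 0.087 after adjustment over the 3 isoforms tested this way. Over 8 tumours the exact permutation p was 0.057 (adjusted 0.17).

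Cox6a2 (chromosome 7, 128205435 to 128206366) was at 1.26, 0.566, 1.04 and 1.58 CPM in KP 5 to KP 8, 3.06, 9.31 and 0.676 CPM in KPH2 2 to KPH2 4, and 0.559 CPM in KPH2 1. KPH2 2 and KPH2 3 were high, while KPH2 4 and KPH2 1 were within or below KP. Its log2 fold change was 1.92 (SE 0.75, adjusted p 0.228, edgeR; exact permutation p = 0.20, adjusted 0.20), and it was -1.64 with the muscle score as a covariate and -0.87 without KPH2 2 and 3 and with KPH2 1. Cox8b (chromosome 7, 140898942 to 140900446) did not pass the filter, with 11, 4, 1 and 11 counts in KP 5 to KP 8, 31, 34 and 6 in KPH2 2 to KPH2 4 and 7 in KPH2 1. The same pair of tumours, KPH2 2 and KPH2 3, was highest (exact permutation p = 0.11 over 7 tumours, adjusted 0.17, and 0.26 over 8, adjusted 0.39). KPH2 2 and KPH2 3 also had the highest muscle scores. Without the 3 muscle isoforms and Cox4nb, 66 of the 71 tested members were positive with a median of 0.29. The summed level of members without these genes was 1.24 times that of KP. The 3 isoforms had a mean sum of only 3.11 CPM in KP and 10.2 CPM in KPH2 2 to KPH2 4. Leaving them out could therefore not move that ratio, and it says nothing of the part of muscle RNA.

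**Figure D4:**
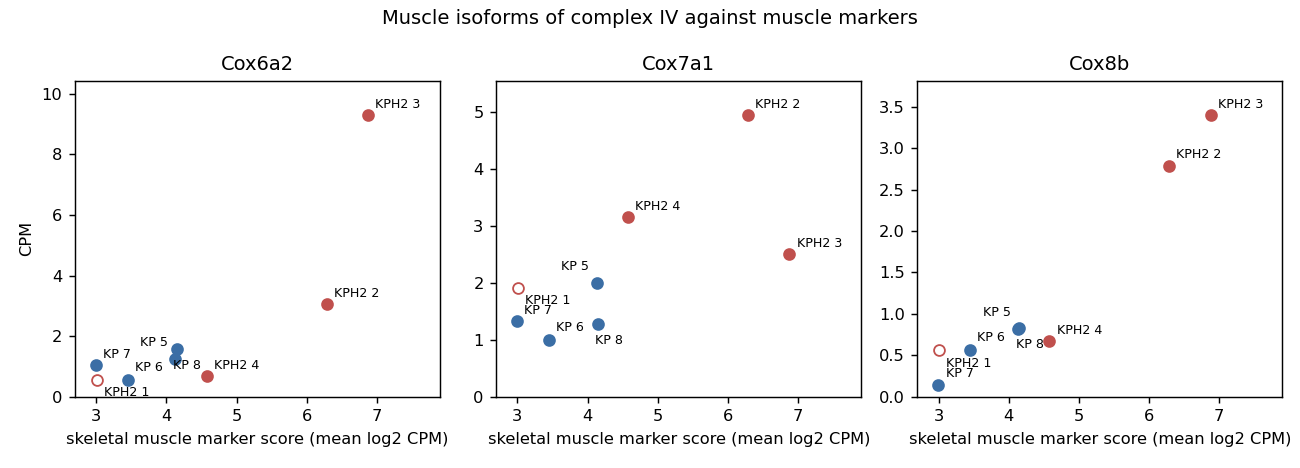
CPM of Cox6a2, Cox7a1 and Cox8b (vertical axes, from 0) against the skeletal muscle marker score (horizontal axis, mean log2 CPM of 32 genes) for each tumour; KP in blue, KPH2 2 to KPH2 4 in red, KPH2 1 open. KPH2 2 and KPH2 3, at scores of 6.29 and 6.88, are the highest for Cox6a2 and Cox8b, while Cox7a1 is higher in KPH2 4 (3.16 CPM) than in KPH2 3 (2.50 CPM).

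The balance of paralogous isoforms within a subunit was compared by log2 ratios of counts. Cox6a2 against Cox6a1 was at -5.41, -6.15, -5.50 and -5.65 in KP 5 to KP 8, at -4.49, -2.54 and -6.21 in KPH2 2 to KPH2 4 and at -6.61 in KPH2 1. KPH2 2 and 3 were above KP and the other pair of KPH2 tumours below it (difference 1.26, exact permutation p = 0.23, adjusted over 5 pairs 0.38). The difference for Cox8b against Cox8a was 1.40 (exact permutation p = 0.20, adjusted 0.38). For Cox7a1 against Cox7a2 it was 2.42 (exact permutation p = 0.14, adjusted 0.38), but Cox7a2 had only 0 to 7 counts per tumour. For Cox4i2 against Cox4i1 it was 0.41 (exact permutation p = 0.40, adjusted 0.50) and for Ndufa4l2 against Ndufa4 0.05 (exact permutation p = 1.0, adjusted 1.0). No pair passed the adjusted p, and the last pair of differences was negative over all 8 tumours (-0.17 and -0.14). The partner Cox6a1 itself was at 45.1 to 81.3 CPM in KP and 54.1 to 69.6 CPM in KPH2 2 to KPH2 4 (log2 fold change 0.03, adjusted p 0.963, edgeR), and Cox8a was at 45.1 to 59.6 CPM and 58.8 to 74.2 CPM (0.36, adjusted p 0.294, edgeR).

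Members that did not pass the low-count filter were Cox7a2, Cox7b2, Cox8b, Cox8c, Ndufa6, Ndufs5, Sdhd and Uqcr11. Cox7b2, a form of testis, had 0 counts in all 8 tumours, which allows up to 0.223 to 0.445 CPM by 3 counts per library, counting error only. Cox8c, also of testis, had 1 count in KP 8, and Uqcr11, a small subunit of complex III, had 1 count in KP 5 and 1 in KPH2 4. Ndufa6, an accessory subunit of complex I, had 0 to 7 counts. None of the 100-base words of Cox7a2, Ndufa6, Sdhd and Uqcr11 occurred in another gene. Whether the annotation or the counting set these low values was not tested.

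Ndufs5, an accessory subunit of complex I, did not pass the filter either, and 19.8% of its words occur in BC002163, an annotated copy. It had 4, 5, 1 and 1 counts in KP 5 to KP 8, 82, 3 and 26 in KPH2 2 to KPH2 4 and 77 in KPH2 1. BC002163 had 95, 64, 78 and 121 counts in KP 5 to KP 8, 13, 95 and 39 in KPH2 2 to KPH2 4 and 7 in KPH2 1. Where one was high the other was low, and their sum was 65 to 122 counts, or 6.71 to 11.7 CPM, in all 8 tumours. The share on Ndufs5 was 91.7% in KPH2 1 (exact Clopper-Pearson 95% interval 83.6 to 96.6) and 86.3% in KPH2 2 (77.7 to 92.5), against 3.06% in KPH2 3 (0.636 to 8.69) and 0.82% in KP 8 (0.0208 to 4.48). KPH2 4 was between them at 40.0% (28.0 to 52.9). The intervals cover counting error only. The pattern was noticed after the values were seen, and it divided the KPH2 tumours among themselves; its cause was not tested.

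**Figure D5:**
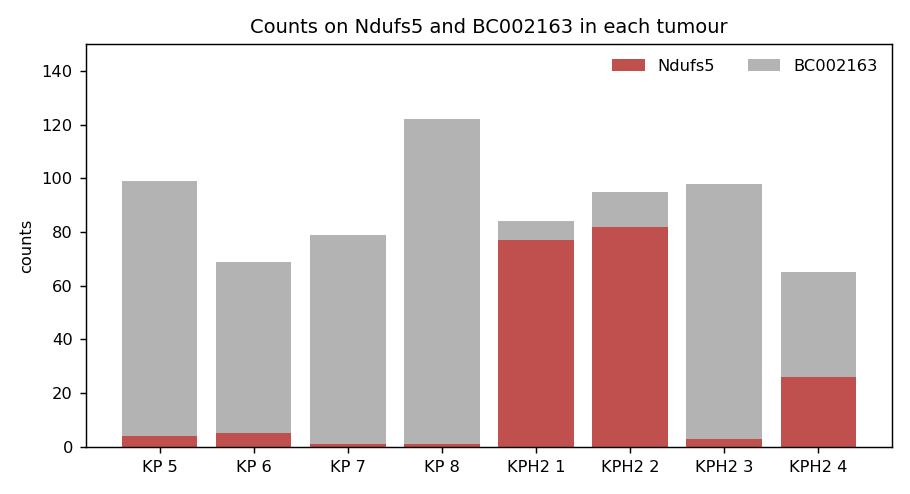
Counts on Ndufs5 (red) and on BC002163 (grey, stacked) in each of the 8 tumours; bars start at 0 and counts are not scaled by depth. The stacked sum is 65 to 122 counts in every tumour, while Ndufs5 takes most of it in KPH2 1 and KPH2 2 and under 10% in KP 5 to KP 8 and KPH2 3.

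Genes next to the chain were read from lists of the same pathways. Of 13 citrate cycle genes 12 were positive (median 0.27), 7 (53.8%) were above KP in every one of KPH2 2 to KPH2 4, where 8.73% of all genes were, and 5 (38.5%, background 3.75%) in all 4 KPH2 tumours. Of 5 chain and synthase genes that the name rule leaves out, among them Cyc1 and Atp5o, 4 were positive (median 0.29). Of 13 genes for ubiquinone, cytochrome c and electron transfer flavoproteins 10 were positive (median 0.11). Of 47 listed assembly factors only 29 matched a row by symbol. Of the 28 tested 20 were positive (median 0.14), and of 11 genes for mitochondrial biogenesis 7 (median 0.03). Of the latter 4 lists, 0, 0, 4 (14.3%) and 1 (9.09%) genes were above KP in every one of KPH2 2 to KPH2 4, against the same 8.73%. Ndufab1 of the first of these was below every KP tumour in KPH2 2 to KPH2 4. In all 4 KPH2 tumours 0, 0, 4 (14.3%) and 0 genes were above KP (background 3.75%). In none of these 5 lists did a gene pass the adjusted p of 0.05 by edgeR in either direction; at an unadjusted p under 0.05 they held 5 (38.5%), 0, 0, 2 (7.14%) and 2 (18.2%) genes higher, where 8.50% of all genes were, and 0 lower (background 9.26%). With DESeq2, 1 of the 13 citrate cycle genes passed the adjusted p as higher, where 4.02% of all genes did.

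Markers of other cell types mostly had negative log2 fold changes, and over 7 tumours none passed the adjusted p by edgeR. Without KP 5, 1 macrophage marker (Mrc1), 1 endothelial marker (Pecam1) and 1 adipocyte marker (Fabp4) were called lower in KPH2 by edgeR (background 1.14%). Over 7 tumours DESeq2 called 2 macrophage and 2 endothelial markers lower (background 3.91%). All 7 macrophage genes were negative (median -0.59), with a summed level of 1881 to 3791 CPM in KP and 1353 to 2033 CPM in KPH2 2 to KPH2 4, with KPH2 1 at 1851 CPM. Of 8 endothelial genes 6 were negative (median -0.50; 283.5 to 560.2 against 301.8 to 309.7 CPM), and of 8 pericyte genes 7 (median -0.44; 627.6 to 1141 against 485.9 to 963.4 CPM). KPH2 1 was the lowest of the 8 tumours for both sums, at 212 CPM for endothelial and 368.9 CPM for pericyte markers. Of 8 adipocyte and 5 brown fat markers 2 each were tested, and all 4 had negative log2 fold changes. The part of these cells in the levels of the members was not tested.

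Levels could be compared between members only per transcript length. In complex I the highest was Ndufa4 at 112 CPM per kb (median of the complex 30.7), in complex II Sdhb at 65.5 (41.1), in complex III Uqcrh at 180 (47.6), in complex IV Cox4i1 at 190 (47.3) and in complex V Atp5b at 332 (86.1), each a mean over 7 tumours. Ndufa4 led complex I in KP only. In KPH2 2 to KPH2 4 Ndufb9 (120.3) and Ndufa7 (110.7) were above it (100.3). The muscle isoforms stood at the low end, with 4.78 CPM per kb for Cox7a1, 3.67 for Cox6a2 and 3.66 for Cox8b.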

How the data were processed

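RNA-seq counts came from 8 tumours. The authors deposited raw counts per RefSeq gene, made with STAR 2.4 on GRCm38 and htseq-count 0.6.1 from unique alignments, and log2 values from the regularized log transformation of DESeq2 1.6 for 7 and for 8 tumours; both are used as deposited. Total counts per tumour were 6463221 to 13155510, and intervals and floors cover counting error only. Counts were fitted in R 4.3.3 with edgeR 4.0.16 (TMM, minimum count 10, minimum total count 15, robust quasi-likelihood test, no covariates) over all genes, with Benjamini-Hochberg values over all tested genes and a threshold of 0.05. CPM used TMM libraries of all 8 tumours, log2 CPM a prior count of 2, and ratios a pseudocount of 0.5. Exact permutation tests were run for isoforms. Nothing in the labels shows that libraries of a group share an animal, so each tumour is 1 replicate.

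The members and lists were chosen with earlier results of these data known. Genes are named by a rule: the muscle isoforms and partners, Cox4i2, Ndufa4l2, members past the threshold, in each complex those with the smallest p in each direction and the highest level per length, all Sdh genes, untested members, Epas1 and list genes past the threshold. Others are said to be singled out. A further member and a further allele by these rules are not reported here. Motifs were searched in 250 bases upstream. The alternatives were all 8 tumours, DESeq2 size factors or upper-quartile scaling, no filter or a mean count of 50, each tumour left out, the muscle score as covariate, a pseudocount of 1, edgeR without robust estimates and DESeq2 1.42.0. Added after seeing the data were the fit without KPH2 2 and 3 and with KPH2 1, the deposited log2 values, and the sum of Ndufs5 and BC002163. The script was tested on simulated data.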

Additional observations from a re-analysis of the deposited data

Results flagged for a closer look

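In 13 of 174 groups of 4 tumours examined, over the members, Epas1 and the sums by complex, 1 tumour stood apart from the other 3 by Dixon's criterion; chance gives about 1 in 20. KPH2 2 was the tumour in 5 of them. It was at 74.2 CPM for Cox8a (others 58.6 to 59.5), 69.6 CPM for Atp5k (46.0 to 47.7), 122 CPM for Ndufb9 (61.9 to 69.5), 49.7 CPM for Ndufc1 (24.1 to 27.1) and 1678 CPM for the sum of complex I (1306 to 1362). KPH2 1 was at 414 CPM for Atp5f1, where the other KPH2 tumours were at 143 to 168 CPM, and KPH2 3 was at 115 CPM for Uqcrc1 (88.4 to 91.2). In KP, KP 5 was at 59.2 CPM for Epas1 (83.2 to 86.9) and KP 8 at 28.1 CPM for Ndufc2 (20.3 to 20.6). The other 4 were single tumours with 1 or 2 counts where the rest had 0. These were Sdhd in KPH2 4 (0.225 CPM), Cox8c in KP 8 (0.0755 CPM), and Uqcr11 in KP 5 (0.0743 CPM) and in KPH2 4 (0.113 CPM). No cause was tested for any of them.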

How the results depend on the processing

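No paired analysis was possible because the groups share no replicate numbers. The count of members past the adjusted p was 0 over all 8 tumours (0.00675% of all genes were called), 0 with the muscle score as a covariate (0.0202%) and 0 without KPH2 2 and 3 and with KPH2 1 (0 of 15316 genes), zeros that are near the background. It was 0 to 1 with each tumour left out (0.283% to 1.26% of all genes were called higher), and 2 with DESeq2 (4.02%). The 1 member called without KPH2 3 was Ndufs5, which passed the filter there only through KPH2 2 and KPH2 4 and divides its reads with BC002163, so this call is no support. Members with a positive log2 fold change numbered 39 with the muscle score as a covariate and 53 to 72 with each tumour left out, the lowest being without KPH2 2, where the median of all members was 0.14. With the covariate the median was 0.0184 over all members, -0.0733 for complex I, 0.106 for II, 0.0513 for III, 0.0783 for IV and 0.0129 for V. The median of complex V ran from 0.14 (without KPH2 2) to 0.41 with each tumour left out. The deposited log2 values gave a median of 0.19 over all members. Epas1 had an adjusted p of 0.00763 by DESeq2 (log2 fold change -0.81) and of 0.0442 by edgeR without KP 5 (-0.92), and its log2 fold change ran from -0.96 to -0.71 with each tumour left out. Values that changed sign, none of which passed the threshold, were Cox6a2 (-1.64 with the covariate, -0.87 without KPH2 2 and 3 and with KPH2 1), Cox6a1 (-0.32 with the covariate, -0.0404 without KPH2 2 and 3 and with KPH2 1; -0.10 to 0.24 with each tumour left out), Cox4i2 (-0.35) and Ndufa4 (0.22) without KPH2 2 and 3 and with KPH2 1, Uqcrh (-0.10 without KPH2 2), Ndufa4l2 (-0.0434 over 8 tumours, -0.39 without KPH2 2 and 3 and with KPH2 1; -0.97 to 0.47 with each tumour left out) and Atp5l (0.21 over 8, 0.29 without KPH2 2 and 3 and with KPH2 1; -0.21 to 0.12 with each tumour left out). The log2 ratio of Cox4i2 to Cox4i1 was -0.17 over 8 tumours, and that of Ndufa4l2 to Ndufa4 was -0.14 over 8, -0.39 without KP 5 and -0.52 without KPH2 2, its range with each tumour left out being -0.52 to 0.56. The cause of these changes was not tested. The smallest exact permutation p was 0.029, so a single isoform could not pass an adjustment over many tests.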
